A study of Ovis aries with 30 samples.

Results

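The genes described here encode proteins that bring fatty acids into cells and carry them inside: the lipase LPL and its capillary anchor GPIHBP1, the lipase inhibitor ANGPTL4, the lipoprotein receptor VLDLR, the transport proteins SLC27A1 and SLC27A4, and the fatty acid binding proteins FABP3, FABP4 and FABP5. They were chosen by name, as the rows of the gene count table whose identifier was on a list of 10 genes. Rows were found for 9 of the 10 among the 28524 genes of the table, and CD36 was not analysed here. All 9 genes passed the filter on low counts in both tissues.

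Lipoprotein lipase releases fatty acids from circulating triglycerides at the capillary wall, where GPIHBP1 holds it, and ANGPTL4 inactivates it. Fatty acids then enter the cell, partly with the help of SLC27 transporters, which also activate them to acyl-CoA, and are carried in the cytosol by binding proteins of the FABP family. Brown adipose tissue burns such fatty acids to make heat, and in lambs the fat around the kidneys changes from brown to white in the weeks after birth.

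RNA was sequenced from peri-renal brown adipose tissue (BAT) and from the thyroid of 15 newborn Romney lambs, the heavier lamb of each twin pair, which gave 30 libraries. The control lambs (n = 3) were sampled on arrival indoors, soon after birth and without treatment. The AT lambs (n = 6) were kept indoors at ambient temperature, 20 to 22 °C, and the cold lambs (n = 6) at 4 °C, both for 2 days. Both treated groups were thus 2 days older than the controls, so in a comparison with the controls age and housing cannot be told apart, and only cold vs. AT compared lambs of the same age. Each BAT library has a thyroid library from the same lamb.

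Library totals ranged from 31556500 to 37025998 counts in BAT and from 25062784 to 30124871 in thyroid. An unnamed pair of genes took 43.8 to 76.5% of the BAT counts, which left 8093700 to 18276329 counts for the other genes, and the 9 genes took 0.207 to 0.775% of that remainder in BAT and 0.0343 to 0.113% in thyroid. The study left 1 control lamb out of each tissue, here called control 2, and the fits below used the other 2. In BAT, control 2 lay outside the range of the 14 other libraries for 7 of the 9 genes. The share of all genes placed so was not determined, and the study removed this lamb because its counts in general were outlying. The summed count of 8 adipocyte markers in control 2 was 216100, against 16350 to 103800 elsewhere in BAT. In thyroid, the libraries of AT 3 and control 1 held skeletal muscle RNA: 9 muscle markers summed to 3629000 and 303000 normalised counts, against 107 to 4179 in the others. The tissue labels held, since 9 thyroid follicular markers summed to at least 1278000 in every thyroid library and to at most 4140 in BAT. TG weighed most in the thyroid sum, with medians of 1231000 in thyroid and 66.8 in BAT on the scale shared by both tissues. DIO1, another of the 9, went the other way, with medians of 799 in BAT and 17.7 in thyroid. The median of UCP1, the uncoupling protein of brown fat, was 12250 in BAT and 10.3 in thyroid on the same scale.

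Levels within a tissue are given as normalised counts, scaled on the reference genes ACTB, RPL19 and HUWE1 as the study did. Levels of different genes are compared only after division by exon length, as normalised counts per kb on a scale shared by both tissues. A gene was called when its adjusted p was below 0.05 in edgeR's quasi-likelihood test and its log2 fold change was at least 1 in size, and ± gives the SE of a log2 fold change unless SD is named. The 95% intervals are normal approximations from this SE and are narrower than the quasi-likelihood test implies. For FABP5 in thyroid cold vs. control the interval was -1.16 to -0.016 at an unadjusted edgeR p of 0.0625. These are bulk tissues, so fewer cells of a type and less RNA per cell cannot be told apart.

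**Figure D1:**
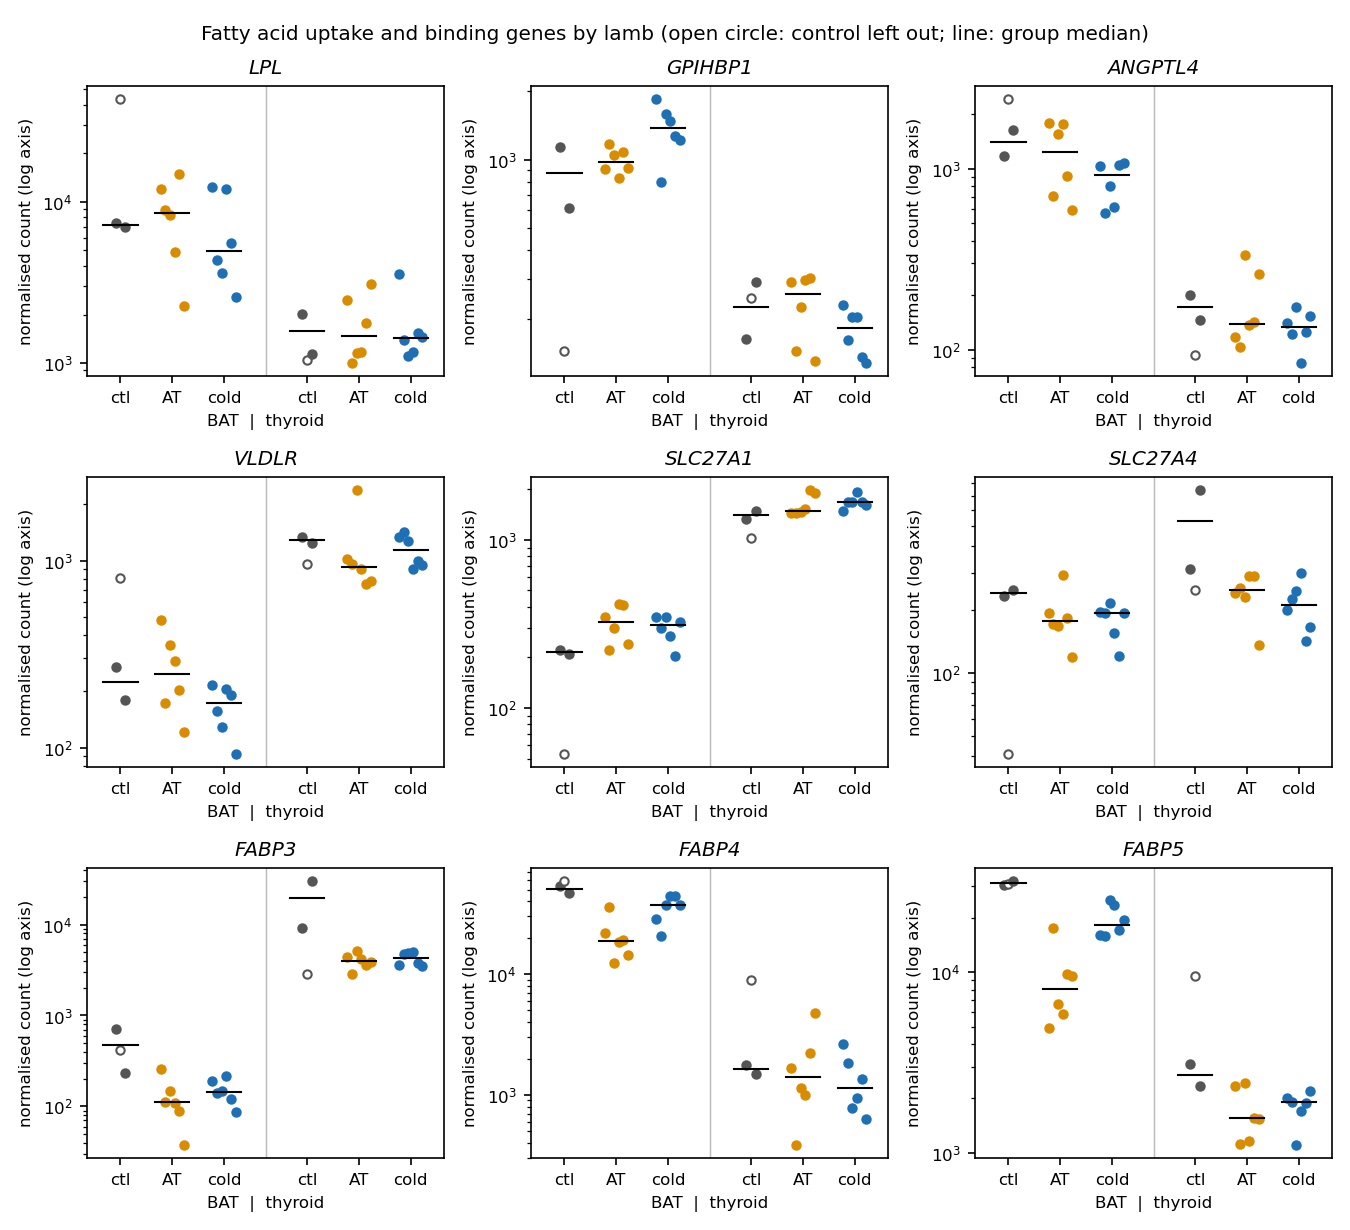
Normalised count (log axis) of each of the 9 genes in every library, by tissue and group, with 1 point per lamb, a line at the group median and an open circle for the control left out of the fits. FABP5 in BAT ran from 4921 to 17450 in AT lambs, from 15790 to 24960 in cold lambs and from 30300 to 31870 in the controls, and FABP3 in thyroid was highest in 1 control at 30070.

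The adipocyte binding proteins FABP4 and FABP5 were by far the most abundant of the 9 in BAT. Per kb of exon, FABP4 averaged 210000 ± 20730 (SD, n = 2) in controls, 83140 ± 31740 (SD, n = 6) in AT lambs and 142500 ± 36920 (SD, n = 6) in cold lambs. The gene model of FABP4 is 399 bases long, a coding length without UTRs, and this divisor sets its per kb level. FABP5 followed at 77320 ± 2762 in controls, 22010 ± 10470 in AT lambs and 46930 ± 9578 in cold lambs, and within each group the ranges of FABP4 and FABP5 did not overlap.

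LPL came next in BAT, at 2603 ± 93.7 (SD, n = 2) in controls, 3060 ± 1656 (SD, n = 6) in AT lambs and 2370 ± 1526 (SD, n = 6) in cold lambs per kb. Its range did not meet that of FABP5 in any group but overlapped that of ANGPTL4 in both treated groups, where ANGPTL4 averaged 1408 and 963 per kb. GPIHBP1 averaged 409 in AT lambs and 550 in cold lambs. FABP3, VLDLR, SLC27A1 and SLC27A4 lay lowest in the treated lambs, with mean levels between 78.7 and 275 per kb, and in the AT lambs the ranges of these 4 genes overlapped each other.

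In the thyroid the order differed. In controls the heart-type binding protein FABP3 stood alone at the top, at 14110 ± 11110 (SD, n = 2) per kb and 6255 to 21960, above FABP4 at 2534 ± 172 and FABP5 at 2524 ± 396, whereas in the treated lambs it shared the top with FABP4. Mean levels per kb in AT lambs were 2839 ± 2338 for FABP4, 2817 ± 602 for FABP3 and 1569 ± 565 for FABP5 (SD, n = 6), with overlapping ranges. In cold lambs FABP3 averaged 3008 ± 552, FABP4 2107 ± 1177 and FABP5 1663 ± 335 (SD, n = 6). LPL, SLC27A1 and VLDLR formed a middle group between 208 and 238 per kb in the AT lambs, and ANGPTL4, SLC27A4 and GPIHBP1 were lowest at 78.9, 53.0 and 35.9 per kb.

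**Figure D2:**
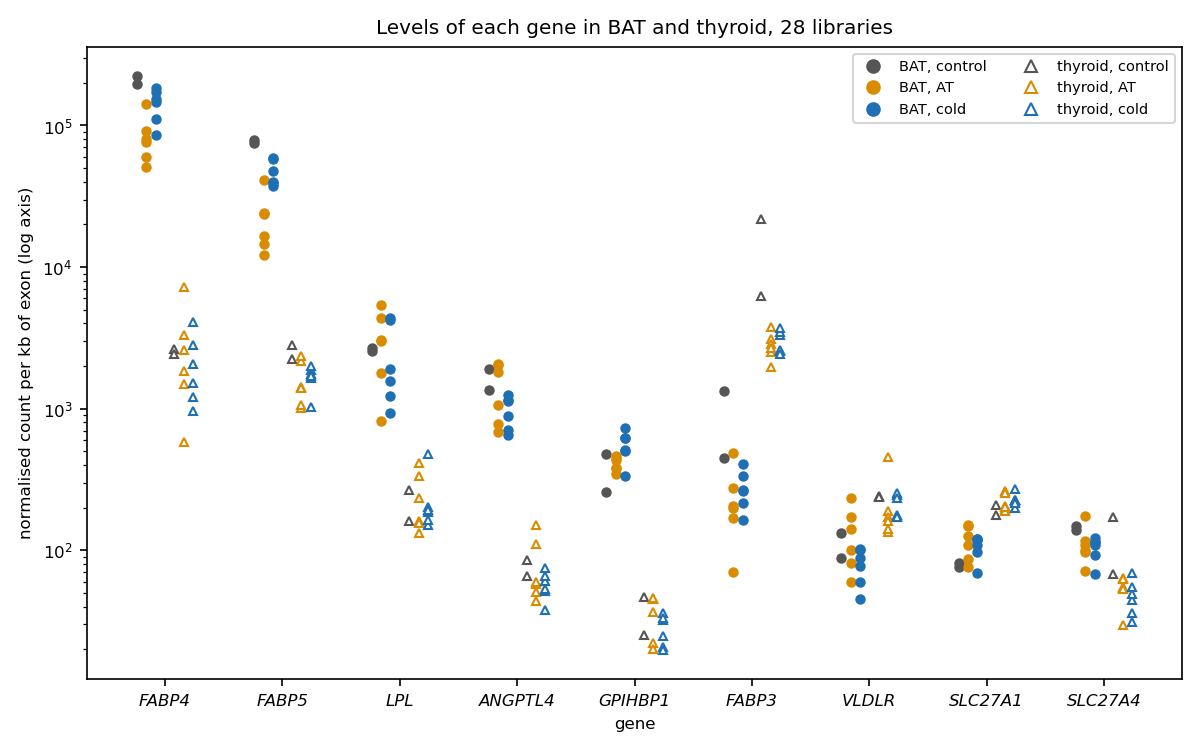
Normalised count per kb of exon (log axis) of the 9 genes in the 28 libraries of the fits, with filled circles for BAT and open triangles for thyroid, coloured by group. FABP4 and FABP5 stand highest in BAT, while the thyroid levels of FABP3, 1980 to 21960 per kb, all lie above its BAT levels, at most 1340 per kb.

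The comparison of BAT with thyroid was made in a joint fit over the 28 libraries. Of the 9 genes, 7 were called in controls, where 30.4% of the 17073 tested genes were called. The calls numbered 7 in AT lambs, where 40.1% of genes were called, and 9 in cold lambs, where 40% were. FABP4, FABP5, ANGPTL4, LPL and GPIHBP1 were higher in BAT in all 3 groups, and FABP3 was higher in thyroid in all 3.

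FABP4 was 82.9-fold higher in BAT than in thyroid in controls, with a log2 fold change of 6.37 ± 0.89 (edgeR adjusted p = 4.12e-06). In AT lambs the log2 fold change was 4.87 ± 0.48, or 5.48 without AT 6, and in cold lambs 6.08 ± 0.51. FABP5 was 30.6-fold higher in controls, with log2 fold changes of 4.94 ± 0.50 in controls, 3.81 ± 0.27 in AT lambs and 4.82 ± 0.29 in cold lambs.

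ANGPTL4, the secreted inhibitor of the lipase, was higher in BAT by 4.44 ± 0.59 in controls, 4.16 ± 0.33 in AT lambs and 4.07 ± 0.33 in cold lambs on the log2 scale. LPL itself was higher by 3.61 ± 0.81, 3.69 ± 0.47 and 3.37 ± 0.46 in the same order. With all 3 controls the LPL value in controls was 5.14. GPIHBP1, which capillary endothelial cells make, was higher by 3.35 ± 0.43, 3.51 ± 0.25 and 4.31 ± 0.26. In controls it was 2.45 without control 1 and 4.24 without control 3. All 10 endothelial markers were also called higher in BAT in AT and in cold lambs, with median log2 fold changes of 2.65 in both groups, and 8 of the 10 in controls; the part of endothelial content in the GPIHBP1 difference was not tested.

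FABP3 was 15.9-fold lower in BAT than in thyroid in controls (log2 fold change -3.99 ± 0.65, edgeR adjusted p = 2.47e-05), 12.1-fold lower in AT lambs, and it had a log2 fold change of -3.46 ± 0.37 in cold lambs. The value in controls rested on the lamb used: it was -5.62 without control 1 and -2.22 without control 3. FABP3 is known from heart and skeletal muscle, and muscle RNA was present in the thyroid libraries of AT 3 and control 1. AT 3 had 5164 normalised counts of FABP3, the highest of the AT lambs. The other AT lambs had 2884 to 4401 and the cold lambs 3511 to 5055, with muscle marker sums of 107 to 4179. Cold 4 had both the highest FABP3 (5055) and the highest muscle marker sum (4179) of the cold lambs. AT 2, with the highest muscle marker sum of the AT lambs after AT 3 (1117), had their lowest FABP3 (2884). Control 3 had 30070 counts of FABP3 with a muscle marker sum of 120, and control 1 had 9090 with a sum of 303000. The 4 cardiac muscle markers summed to at most 148 in thyroid, and NPPA was at 0 in every library. The part of muscle RNA in the FABP3 difference between the tissues was not tested.

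The fatty acid transporters differed less between the tissues. SLC27A1 was lower in BAT, with log2 fold changes of -1.30 ± 0.28 in controls and -1.10 ± 0.16 in cold lambs, and in AT lambs its log2 fold change of -0.91 ± 0.16 fell short of the fold threshold. SLC27A4 was higher in BAT in AT lambs (1.06 ± 0.24) and in cold lambs (1.12 ± 0.24), and in controls it was 0.27 ± 0.41 and not called. The median over all genes was 0.38 in AT lambs and 0.34 in cold lambs under the reference gene scaling and 0.08 and 0.12 under TMM scaling, where SLC27A4 had log2 fold changes of 0.72 and 0.92 and was not called and SLC27A1 was also called in AT lambs, at -1.24. Without AT 4, SLC27A4 was 0.95 in AT lambs and not called, and SLC27A1 was called there at -1.02; without control 3, SLC27A1 was -1.13 in controls and not called (edgeR adjusted p = 0.0507). VLDLR, which takes up triglyceride-rich lipoproteins, was lower in BAT in cold lambs (-1.41 ± 0.31), while it was -0.66 ± 0.30 in AT lambs and -1.10 ± 0.52 in controls. With the lamb as a block, which pairs the tissues of each animal, VLDLR was also called in controls, at -1.13 (edgeR adjusted p = 0.0244), as it was without AT 3 (-1.11, adjusted p = 0.0415). Under median-of-ratios scaling VLDLR was called in controls (-1.20) and in AT lambs (-1.06, edgeR adjusted p = 0.00183), and with control 2 in place of control 1 or 3 it was 0.17 and 0.30 in controls and not called.

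Other genes of fatty acid handling were tested as 5 lists. Over all 17073 tested genes, 2725 were called higher in BAT in controls, 4676 in AT lambs and 4555 in cold lambs. Those called lower in BAT numbered 2462, 2165 and 2278 in the same order. Of the 17 tested genes for fatty acid transport, activation and caveolae, 11 were higher in BAT in controls, 13 in AT lambs and 14 in cold lambs, and 0, 1 and 1 were lower. In cold lambs the largest differences in this list were SLC27A6 at 6.24 ± 0.74, the very long chain acyl-CoA synthetase SLC27A2 at 5.70 ± 0.76, the caveolar coat protein CAV1 at 3.88 ± 0.37 and EHD2, which sits at the neck of caveolae, at 3.85 ± 0.25. Of the 9 tested genes for other intracellular lipid binding proteins, 1, 2 and 2 were higher in BAT and 1, 1 and 0 lower, with the retinoid carrier RBP7 at 5.57 ± 0.54 in cold lambs. Among 14 lipoprotein and scavenger receptors, 5, 4 and 6 were higher and 6, 3 and 4 lower, with LRP2, which encodes megalin, at -8.67 ± 0.89 in controls. The PPAR list had 7, 9 and 10 of 16 genes higher in BAT, with PPARG at 4.74 ± 0.28 in cold lambs, and 1, 2 and 1 lower. UCP3, an uncoupling protein of muscle and brown fat, was among those lower in every group (-13.01 in controls, -8.15 ± 0.41 in AT lambs and -9.80 ± 0.48 in cold lambs). The muscle-bearing thyroid libraries of control 1 and AT 3 entered the control and AT values, and their part in these was not tested. The list for lipase regulation and maturation had 8 tested genes, and it also held genes of other roles. Its phospholipid transfer gene PLTP was lower in all 3 groups, at -1.77 ± 0.22 in cold lambs. Hepatic lipase LIPC was lower in AT and cold lambs, while PCSK6 was higher in AT and cold lambs.

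In BAT of AT lambs, FABP3, FABP4 and FABP5 fell, and they were the 3 of 9 genes called, where 5.7% of 14940 tested genes were called. In cold lambs 0 of the 9 genes were called by edgeR, where 1% of genes were called. An unadjusted p below 0.05 was found for 2 of the 9 and 2487 of the 14940 genes. DESeq2's Wald test called 1 of the 9, FABP3. Its calls over all genes lay within the 139 to 999 of the alternative fits that were not leave-one-out fits. Both comparisons share the 2 controls.

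FABP5, the epidermal-type binding protein, which fat cells also make, had 30300 and 31870 normalised counts in the 2 controls and 30630 in control 2. In AT lambs it ranged from 4921 to 17450 with a median of 8099, and in cold lambs from 15790 to 24960 with a median of 18260. Neither treated group overlapped the controls, and 3 of the 6 cold lambs lay above every AT lamb. The log2 fold change was -1.78 ± 0.34 in AT vs. control (3.44-fold lower, edgeR adjusted p = 0.00822) and -0.67 ± 0.35 in cold vs. control (adjusted p = 0.357).

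FABP4, the adipocyte binding protein, had 54030 and 46980 normalised counts in the controls and 58720 in control 2. AT lambs ranged from 12310 to 35910 (median 18870) and cold lambs from 20830 to 44090 (median 37510), so that all 12 treated lambs lay below the controls. The fall was 1.31 ± 0.32 on the log2 scale in AT lambs (2.48-fold, edgeR adjusted p = 0.0247). The log2 fold change in cold lambs was -0.51 ± 0.34 (edgeR adjusted p = 0.482).

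FABP3 was a low gene in BAT, with 709 and 236 normalised counts in the controls and 415 in control 2. It ranged from 37.4 to 257 in AT lambs (median 110) and from 87.4 to 214 in cold lambs (median 145). The highest AT lamb overlapped the lower control and no cold lamb did. The log2 fold change was -1.91 ± 0.49 in AT lambs (edgeR adjusted p = 0.0285) and -1.65 ± 0.49 in cold lambs (adjusted p = 0.101).

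With all 3 controls the AT calls of FABP3, FABP4 and FABP5 stood at -1.86, -1.39 and -1.78, and FABP3 was also called in cold lambs, at -1.60 (edgeR adjusted p = 0.0391), as it was without AT 6 (-1.65, adjusted p = 0.0456). With control 1 or control 3 left out, which leaves a lone control assumed to vary like the treated lambs, none of the 3 AT calls held, with adjusted p values of 0.0759 to 0.463, while FABP5 stayed at -1.82 and -1.75. The calls over all genes in these fits fell from 852 to 70 without control 1 and to 61 without control 3. FABP3 ranged from -0.92 without control 1 to -2.51 without control 3. Of the reference genes, ACTB averaged 19910 ± 3006 (SD, n = 6) in AT lambs against 29710 ± 2142 (SD, n = 2) in controls and RPL19 10740 ± 789 against 8152 ± 1072, with no overlap, and under TMM scaling, which does not use them, the calls were -1.93, -1.30 and -1.75. FABP3 also lost its call without AT 5 (adjusted p = 0.0558) and with control 2 in place of control 1 (-1.37, adjusted p = 0.0667).

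The other 6 genes were not called against the controls in BAT. SLC27A1, which imports fatty acids in muscle and fat, had 222 and 209 normalised counts in the controls and ranged from 222.3 to 417 in AT lambs, all above the controls. Its log2 fold change was 0.58 ± 0.27 in AT lambs (edgeR adjusted p = 0.188) and 0.47 ± 0.27 in cold lambs (adjusted p = 0.401). SLC27A4 was 233 and 249 in the controls, and the 6 cold lambs, at 120 to 215, lay below both, with a log2 fold change of -0.44 ± 0.27 (edgeR adjusted p = 0.45).

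For LPL the controls had 7341 and 6977 normalised counts, within the ranges of 2274 to 14810 in AT lambs and 2581 to 12300 in cold lambs. Its log2 fold changes were 0.25 ± 0.63 in AT lambs and -0.09 ± 0.62 in cold lambs. Control 2 had 43200, and with all 3 controls the values became -1.17 and -1.51, still not called. ANGPTL4 had 1170 and 1640 in the controls, 595 to 1793 in AT lambs and 567 to 1080 in cold lambs, where every lamb lay below the controls (-0.71 ± 0.38, edgeR adjusted p = 0.373). VLDLR overlapped the controls, at 180 and 270, in both treated groups, and with control 2 (807.5) in place of control 3 it was called lower in cold lambs, at -1.70 (edgeR adjusted p = 0.0326).

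GPIHBP1 had 1132 and 611 normalised counts in the controls, 827 to 1167 in AT lambs and 798 to 1839 in cold lambs. Its log2 fold change in cold vs. control was 0.64 ± 0.29 (edgeR adjusted p = 0.274). The value depended on which controls were used, since control 2 had 145: with control 2 in place of control 1 it was 1.83 in cold lambs (edgeR adjusted p = 0.0244) and 1.37 in AT lambs (adjusted p = 0.0483), both called. The endothelial markers of control 2 also summed lowest in BAT, at 16310 against 40900 to 71640 in the other 14 libraries. Of the 10 endothelial markers, KDR was called lower in AT lambs (-1.20 ± 0.20) and none in cold lambs.

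**Figure D3:**
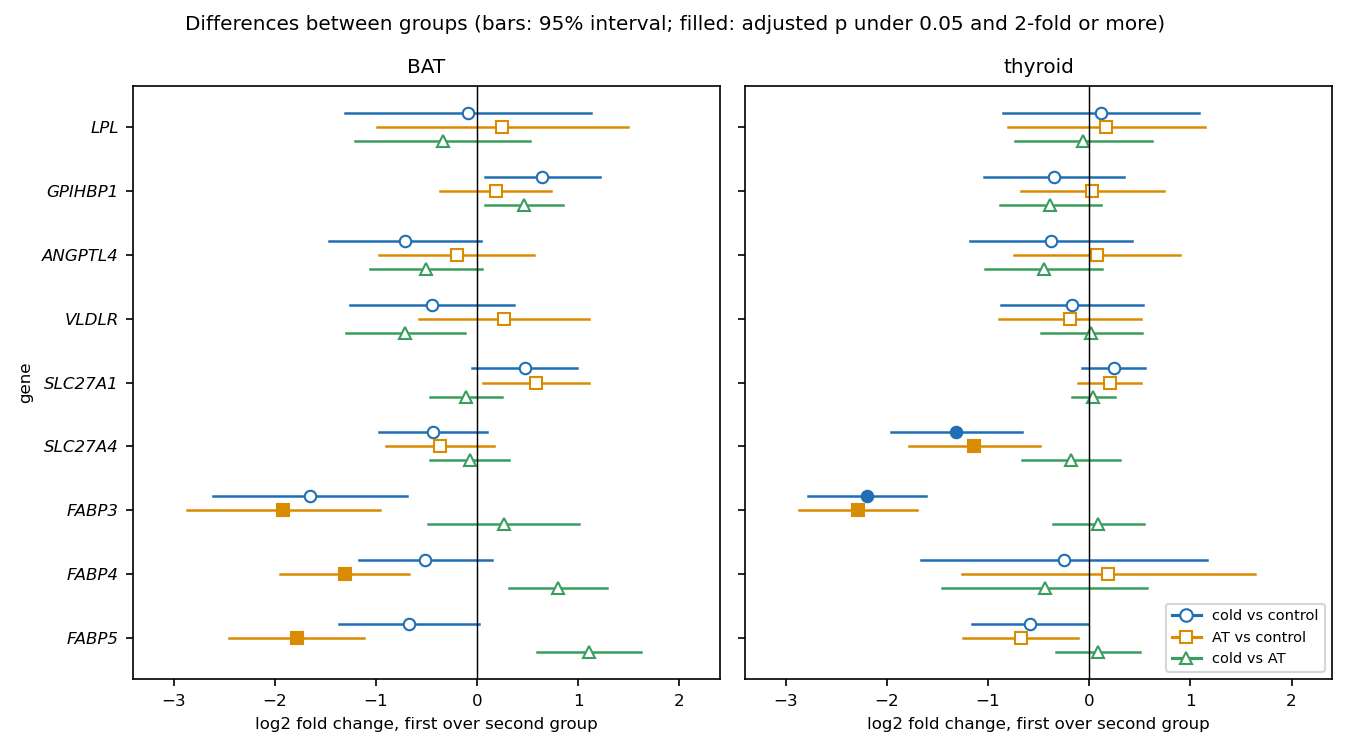
Log2 fold change of each gene for the 3 comparisons in BAT and in thyroid, with bars for the approximate 95% interval (normal approximation from the SE) and filled symbols for called genes. The filled symbols are FABP3, FABP4 and FABP5 in BAT in AT vs. control, and FABP3 and SLC27A4 in thyroid against the controls, all below 0.

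The same-age comparison of cold with AT lambs asks what the temperature changed. In BAT 0 of the 9 genes were called by edgeR, where 0.295% of genes were called. An unadjusted p below 0.05 was found for 4 of the 9 and 1876 of the 14940 genes. DESeq2's Wald test called 1 of the 9, FABP5, beside 152 of all genes. FABP5 was 2.16-fold higher in cold lambs (log2 fold change 1.11 ± 0.26, 95% interval 0.59 to 1.62, edgeR adjusted p = 0.0979). FABP4 was 1.74-fold higher (0.80 ± 0.25, edgeR adjusted p = 0.22), and 4 of the 6 cold lambs lay above every AT lamb.

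A single AT lamb, AT 2, held the highest FABP4 (35910) and FABP5 (17450) of its group. Without AT 2 both genes were called higher in cold lambs, FABP5 at 1.41 (edgeR adjusted p = 0.00664) and FABP4 at 1.04 (adjusted p = 0.0366). FABP5 had adjusted p values from 0.00498 to 0.232 over its 23 alternatives, and its log2 fold change stayed between 0.98 and 1.41.

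GPIHBP1 was 1.38-fold higher in cold than in AT lambs (0.46 ± 0.20, edgeR adjusted p = 0.356), with 5 of 6 cold lambs above every AT lamb and the other below them all. The endothelial markers summed to 47250 to 71640 in cold and to 40900 to 54030 in AT lambs, with 7 of 10 markers higher and none called, and their part in the GPIHBP1 difference was not tested. VLDLR was lower in cold lambs, at 92.4 to 217 against 121 to 479 normalised counts (-0.71 ± 0.30, edgeR adjusted p = 0.354), and ANGPTL4 was -0.51 ± 0.28 (adjusted p = 0.464). LPL, FABP3, SLC27A1 and SLC27A4 had log2 fold changes of -0.34 ± 0.44, 0.26 ± 0.38, -0.11 ± 0.18 and -0.07 ± 0.20. The approximate intervals of SLC27A1 (-0.47 to 0.25) and SLC27A4 (-0.46 to 0.32) excluded a 2-fold change in either direction, and that of LPL (-1.20 to 0.53) did not.

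The adipocyte markers had the opposite sign to FABP4 and FABP5 in both comparisons with AT lambs. All 8 adipocyte markers had positive log2 fold changes in AT vs. control in BAT (median 1.01, none called) and 0 of 8 were positive in cold vs. AT (median -0.45, none called). Their sum was 16350 to 103800 in AT lambs, 26440 to 57890 in cold lambs and 28500 and 36210 in the kept controls. ADIPOQ weighed most in it, with a BAT median of 44790 on the scale shared by both tissues, against 13120 for PNPLA2, the next. The sum of 7 brown adipocyte markers was 27400 and 22210 in the kept controls, 5966 to 17260 in cold lambs and 1520 to 17290 in AT lambs, so that, as for FABP5, every treated lamb lay below the controls. UCP1 weighed most in this sum, with a BAT median of 12250 on the scale shared by both tissues, against 2140 for EBF2, the next. Of the 6 brown adipocyte markers tested, 1 had a positive log2 fold change in cold vs. control, 2 in AT vs. control and 3 in cold vs. AT. AT 2, the AT lamb with the most FABP4 and FABP5, also had the highest brown adipocyte sum of its group. No brown adipocyte marker was called in BAT, and the part of either cell state in the FABP values was not tested. ZIC1 was at 0 in every BAT library.

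**Figure D4:**
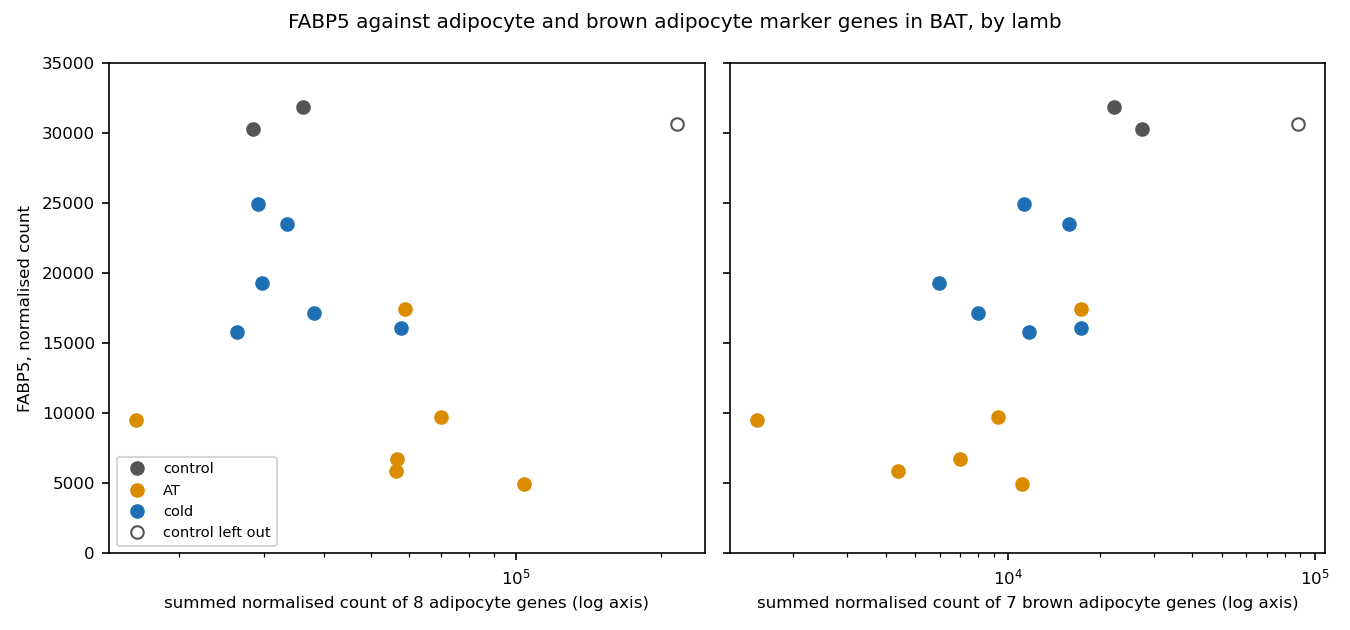
FABP5 in BAT (normalised count) against the summed normalised count (log axis) of 8 adipocyte markers and of 7 brown adipocyte markers, with 1 point per lamb. The AT lambs hold both the lowest and the highest adipocyte sums of the lambs in the fit, 16350 to 103800, at FABP5 counts below both controls. On the brown adipocyte axis the controls, at 22210 and above, lie to the right of all treated lambs.

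Of 58 other fatty acid genes tested in BAT, edgeR called 0 in cold vs. control (11 of the 58 and 2487 of all 14940 genes had an unadjusted p below 0.05), 0 in cold vs. AT (13 of the 58 and 1876 of all genes) and 3 in AT vs. control, a share near the 5.7% of all genes. These 3 were the sorting receptor SORL1, which was higher (edgeR adjusted p = 0.0189), and, both lower, CPT1A, which admits fatty acids to mitochondria (-1.50 ± 0.30), and the fatty acid receptor PPARD (-1.35 ± 0.28). The 8 other lipid binding proteins had a median log2 fold change of 0.41 in AT vs. control and none was called, beside a median of 0.06 over all genes.

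In the thyroid, FABP3 and SLC27A4 fell in both treated groups. FABP3 and SLC27A4 were the 2 of 9 genes called in cold vs. control, where 8.08% of 16215 genes were called, and the 2 called in AT vs. control, where 7.72% were. The median over all genes was -0.29 and -0.28 in these comparisons, which again share their controls.

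FABP3 had 9090 and 30070 normalised counts in the thyroid of the 2 controls, and 2888 in control 2. AT lambs ranged from 2884 to 5164 (median 4026) and cold lambs from 3511 to 5055 (median 4282), all below both kept controls. Control 2 lay within the AT range and below every cold lamb. The log2 fold change was -2.19 ± 0.30 in cold lambs (4.57-fold lower, edgeR adjusted p = 0.00115) and -2.28 ± 0.30 in AT lambs (4.87-fold lower, adjusted p = 0.000803). The size rested on control 3: without it the cold value was -1.09 (adjusted p = 0.0671) and not called, and with control 2 in its place the values were -0.49 and -0.57 (adjusted p = 0.318 and 0.246). Control 3 also held the highest follicular marker sum (5669000, against 1278000 to 2805000 in the other thyroid libraries) and the highest endothelial sum (44990), and their part in the result was not tested. Against the controls, 2 follicular and 3 endothelial markers were called lower in cold lambs and 3 and 2 in AT lambs, while 4 macrophage markers were called higher in cold lambs, and in AT lambs 3 were called higher and 1, CD14, lower. The muscle marker sum of control 3 was 120. Leaving out the muscle-bearing libraries of AT 3 and control 1 left control 3, with its 30070 counts, as the only control. The FABP3 log2 fold changes were then -2.81 in cold and -2.99 in AT lambs. The part of muscle RNA in the result was not tested.

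SLC27A4, an acyl-CoA synthetase and fatty acid transporter of the endoplasmic reticulum and cell surface, had 311 and 742 normalised counts in the controls and 248.5 in control 2. AT lambs ranged from 136 to 291 and cold lambs from 142 to 297, all below the kept controls. The log2 fold change was -1.31 ± 0.33 in cold lambs (edgeR adjusted p = 0.0149) and -1.13 ± 0.33 in AT lambs (adjusted p = 0.0263). Under TMM scaling these were -0.98 and -0.76 and not called, and without control 3 they were -0.55 and -0.38 and not called. With all 3 controls the AT value was -0.86 (adjusted p = 0.0869) and not called.

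FABP5 was lower in the treated thyroids by less. It had 3095 and 2334 normalised counts in the controls, 1104 to 2197 in cold lambs, all below the controls, and 1124 to 2450 in AT lambs, and its log2 fold changes were -0.59 ± 0.29 (edgeR adjusted p = 0.162) and -0.68 ± 0.29 (adjusted p = 0.107). Control 2 had 9552, the highest of the 15 thyroid libraries, together with the highest thyroid sums of adipocyte markers (46600) and brown adipocyte markers (12210). With all 3 controls FABP5 was called, at -1.47 in cold lambs (edgeR adjusted p = 0.0143) and -1.56 in AT lambs (adjusted p = 0.0121), and the part of fat RNA in this was not tested. Of the brown adipocyte markers, PPARGC1A was called lower in both treated groups and UCP1 in AT lambs. FABP4 in thyroid ranged widely, from 384 to 4755 in AT lambs and from 633 to 2653 in cold lambs, around controls of 1754 and 1501.

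LPL, GPIHBP1, ANGPTL4, VLDLR and SLC27A1 were not called in the thyroid. Their log2 fold changes against the controls lay between -0.37 and 0.24, and the widest interval was that of LPL in AT lambs, -0.80 to 1.14. VLDLR reached 2380 normalised counts in AT 3, the library with the most muscle RNA, and was 749 to 1417 in the other treated lambs. Cold and AT lambs did not separate in the thyroid: edgeR called 0 of the 9 genes and 0% of all genes. An unadjusted p below 0.05 was found for 0 of the 9 and 897 of all genes. The Wald test called 0 of the 9, beside 4 of all genes. The approximate intervals of FABP3 (-0.36 to 0.54), FABP5 (-0.33 to 0.51) and SLC27A1 (-0.17 to 0.26) excluded a 2-fold change, and that of FABP4 (-1.45 to 0.57) did not.

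Among the 58 other fatty acid genes in the thyroid, 5 were called in cold vs. control and 3 in AT vs. control, shares near or below the 8.08% and 7.72% of all genes. The lipoprotein receptor LRP8 (-1.91 ± 0.37 in cold and -1.90 ± 0.37 in AT lambs), the arachidonate-preferring synthetase ACSL4 (-1.16 ± 0.30 and -1.25 ± 0.30) and the lipid droplet coat gene PLIN2 (-1.36 ± 0.36 and -1.72 ± 0.36) fell in both. In cold lambs hepatic lipase LIPC rose by 1.64 ± 0.52, and PDK4, which spares glucose when fatty acids are burned, fell by 2.41 ± 0.75. In cold vs. AT 0 of the 58 were called, with 3 at an unadjusted p below 0.05, beside 897 of all 16215 genes.

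Whether the responses of the 9 genes differed between BAT and thyroid was tested as the tissue difference in the joint fit. None of the 9 was called by edgeR or by the Wald test in any of the 3 comparisons. Over all genes, edgeR called 0.182% for cold vs. control, 2.13% for AT vs. control and 0.00586% for cold vs. AT. The Wald test called 25 of all genes for cold vs. AT. Its calls for cold vs. control and AT vs. control lay within 20 to 378 and 184 to 1371, the ranges of the alternatives that were not leave-one-out fits. At an unadjusted p below 0.05 the counts were 1, 1 and 3 of 9, beside 2130, 3301 and 1356 of all 17073 genes. In cold vs. AT, FABP5 differed by 1.01 ± 0.35 between the tissues (edgeR adjusted p = 0.412), FABP4 by 1.21 ± 0.58 (adjusted p = 0.617) and GPIHBP1 by 0.80 ± 0.32 (adjusted p = 0.507). In AT vs. control FABP5 differed by -1.13 ± 0.49 (edgeR adjusted p = 0.209), so the fall of FABP5 in BAT was not shown to be particular to that tissue. Of the 64 other fatty acid genes tested, 2 were called, both in AT vs. control: the lipase maturation factor LMF1 (1.49 ± 0.38) and PLIN2 (2.04 ± 0.54).

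The named genes outside the 9 that ran most closely with each of them were listed over the 14 libraries of a tissue, as a description. Unnamed genes were left out, and some of them ran closer than the genes given here. The libraries share treatment groups and scaling, and r is Pearson's on log2 normalised counts plus 1. In BAT FABP5 ran closest with SHROOM4 (r = 0.95), KDM7A (0.95) and KLF7 (0.95), and FABP4 with RAP1A (0.91), TMEM135 (0.90) and TINAGL1 (0.89). FABP4 and FABP5 had r = 0.85 with each other, which was 0.85 or 0.93 without the 2 libraries farthest from the median of FABP4 or of FABP5. LPL ran with the mitochondrial genes CHCHD5 (0.93), NDUFS4 (0.90) and MPC2 (0.89), whereas its r with FABP5 was -0.12. FABP3 ran with RDH13, HMOX2 and TOMM40 at 0.92 each, falling to between 0.68 and 0.76 without control 1 and AT 6.

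Of the remaining genes in BAT, GPIHBP1 ran closest with PSMB10 (0.85), BCL2L15 (0.83) and CMPK2 (0.83), and SLC27A1 with CROCC (0.95), CROT (0.93) and CDK20 (0.92). SLC27A4 was nearest to PIP5K1A, MAPK12 and SHANK3 at 0.94 each. ANGPTL4 was nearest to AMACR (0.90), PPOX (0.84) and NPC1 (0.83), and VLDLR to VDAC3 (0.88), CDKN1A (0.88) and GCSH (0.87).

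In thyroid the genes nearest to FABP4 were the adipogenic transcription factors PPARG (0.80) and CEBPA (0.80) with HOXD9 (0.80), and its r with LPL was 0.79. LPL ran with the immediate early genes EGR1 (0.80) and FOS (0.79) and with ASGR1 (0.78), falling to 0.69, 0.51 and 0.53 without cold 1 and AT 6. FABP3 ran with CPTP, SEC61B and SPRYD3 at 0.97 each, a relation that fell to between 0.52 and 0.72 without controls 3 and 1. SLC27A4 ran with ZNF777, SDF2L1 and EHMT1 at 0.97 each, and still at 0.89 to 0.92 without control 3 and AT 6. For the other genes the nearest named gene had r of 0.84 (FXYD6 with GPIHBP1), 0.83 (MEOX1 with FABP5), 0.86 (GABBR1 with SLC27A1), 0.88 (LAMA2 with ANGPTL4) and 0.90 (CDKAL1 with VLDLR).

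On the Oar_rambouillet_v1.0 assembly the table places FABP4 (chromosome 9, 62825793 to 62830309, minus strand) and FABP5 (chromosome 9, 62643120 to 62648174, plus strand) close together. The unnamed gene LOC114116376 overlaps FABP5 on the opposite strand with a median of 882 counts in BAT, and without a stated strand setting the reads of the pair cannot be told apart. LPL (48325425 to 48351715), VLDLR (76235934 to 76267784) and FABP3 (251661775 to 251670294) lie on chromosome 2, SLC27A4 (8206135 to 8220029) on chromosome 3, SLC27A1 (5608036 to 5647996) and ANGPTL4 (15327030 to 15333559) on chromosome 5 and GPIHBP1 (15593324 to 15600330) on chromosome 9. No gene of the table overlaps these 7 or FABP4.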

How the data were processed

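Peri-renal BAT and thyroid were collected from 15 lambs, and poly(A) RNA was sequenced in paired-end mode. Per the labels and the study's methods, the authors trimmed reads with Trimmomatic 0.39, aligned them with STAR 2.7.7a to Oar_rambouillet_v1.0, and counted reads per gene with featureCounts (Subread 2.0.0), multi-mapped reads included; the strand setting is not given in the sources used here. The deposited values are these raw counts. Chromosome numbers were assigned by the majority of gene symbols shared with a RefSeq table of another assembly, from which no coordinate was taken.

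A gene was tested in a tissue where 10 or more of its 15 libraries held 10 or more reads, using edgeR 4.0.16 (quasi-likelihood, robust, Benjamini-Hochberg adjustment over all tested genes) in R 4.3.3, with size factors from ACTB, RPL19 and HUWE1. The joint fit applied the same filter to all 30 libraries. Control 2 was identified as the lamb left out by proportionality with the study's normalised values. The scripts were tested on simulated data. Alternatives were TMM and median-of-ratios scaling, the DESeq2 1.42.0 Wald test, other controls, other filters, leave-one-out fits, 2-group fits, RNA integrity as a covariate and the lamb as a block. The members and lists were chosen with earlier results of these data known. Named genes were the 9 members, up to 4 called genes of largest fold per list, and the 3 nearest named genes per member. Each BAT library is paired with the thyroid library of its own lamb: over all tested genes, a lamb's deviations in BAT and thyroid had r of 0.045 to 0.33 (14 lambs). Replicate libraries all differed by more than sampling noise.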

Additional observations from a re-analysis of the deposited data

Results flagged for a closer look

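The highest library of 2 groups lay far from the rest by Dixon's test, among 36 sets of 1 gene in 1 group of 6 lambs, where chance flags about 1 set in 20: LPL in the thyroid of cold 1, with 3561 normalised counts, and VLDLR in the thyroid of AT 3, with 2380, the library with the highest muscle marker sum.

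Control 2, which entered none of the main fits, was above all 14 other libraries of its tissue for 6 values. In BAT these were LPL (43200 normalised counts, against 2274 to 14810), FABP4 (58720, against 12310 to 54030), ANGPTL4 (2420, against 567 to 1793) and VLDLR (807.5, against 92.4 to 479). In thyroid they were FABP4 (8978, against 384 to 4755) and FABP5 (9552, against 1104 to 3095), beside the highest thyroid sums of adipocyte markers. The share of all genes for which control 2 lay above the other libraries was not determined.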

How the results depend on the processing

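The number of the 9 genes called in BAT cold vs. control was 0, and became 1 under the DESeq2 Wald test, with all 3 controls, with control 2 in place of control 1 and in a fit of only the 2 groups, and 2 with control 2 in place of control 3. In BAT AT vs. control it fell from 3 to 1 in a fit of only the 2 groups, and in BAT cold vs. AT it rose from 0 to 1 under the Wald test. In thyroid cold vs. control it fell from 2 to 1 under TMM and median-of-ratios scaling. It also fell to 1 with control 2 in place of control 3, where that call was FABP5. With all 3 controls and with control 2 in place of control 1 it rose to 3, as FABP5 was gained. In thyroid AT vs. control it fell from 2 to 1 under both scalings, with control 2 in place of control 3 and in the 2-group fit. With all 3 controls and with control 2 in place of control 1 it stayed at 2, with FABP5 called and SLC27A4 not. The tissue difference in cold vs. control rose from 0 to 1 (GPIHBP1) with control 2 in place of control 1. Leaving out each lamb in turn gave 0 to 1 (BAT cold vs. control), 0 to 3 (BAT AT vs. control), 0 to 2 (BAT cold vs. AT), 0 to 2 (thyroid cold vs. control) 1 to 2 (thyroid AT vs. control) and 6 to 8 (BAT vs. thyroid in controls). The cause was not tested. With the lamb as a replicate block, the BAT vs. thyroid counts were 8, 7 and 9 in controls, AT and cold lambs, against 7, 7 and 9, and it changed no call other than VLDLR in controls. Among the values of single genes under the alternatives, 2527 kept their call or lack of one, 30 lost it and 26 gained one. No value called in either fit changed sign. Uncalled values that changed sign were counted as kept, such as LPL in BAT AT vs. control, which ran from -1.57 to 0.45. Fitting without the thyroid libraries of AT 3 and control 1 was chosen after seeing the data, and it left control 3 as the only control. Calls over all genes moved by more than 1.5 times in most comparisons. With 1 lamb left out they ran from 0 (without control 1) to 290 in BAT cold vs. control (150 with all kept lambs), from 61 (without control 3) to 1210 in BAT AT vs. control (852), from 2 (without AT 3) to 93 in BAT cold vs. AT (44), from 127 (without control 3) to 1898 in thyroid cold vs. control (1310), from 129 (without control 3) to 2021 in thyroid AT vs. control (1251), from 2998 (without control 3) to 5457 in BAT vs. thyroid in controls (5187), and for the tissue difference from 1 to 214 in cold vs. control (31), from 6 to 1003 in AT vs. control (363) and from 0 to 6 in cold vs. AT (1). Over the other alternatives, with the fold threshold kept, these counts ran from 139 to 999, 377 to 1394, 0 to 152, 785 to 2417, 699 to 2788 and 4938 to 5594, and for the tissue difference from 20 to 378, 184 to 1371 and 0 to 25. Without the fold threshold, the thyroid calls against the controls were 3204 in cold and 3417 in AT lambs, and the BAT vs. thyroid calls 10909 in AT and 10818 in cold lambs. Under TMM scaling the share called higher rose from 309 of 1310 to 452 of 786 in thyroid cold vs. control and from 296 of 1251 to 463 of 731 in thyroid AT vs. control, and from 90 of 150 to 232 of 327 in BAT cold vs. control, while it fell from 4676 of 6841 to 3495 of 6289 in BAT vs. thyroid in AT lambs. With 2 controls, a fold against them is limited by their own spread.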
